A study of Caenorhabditis elegans with 2 samples.

Results

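The regions described here are the 300 autosomal ChIP-seq candidate regions with the highest signal among those far from any gene start in *C. elegans* larvae. They were taken from the authors' pooled list of 30000 candidate regions, of which 24124 lay on the 5 autosomes. In 10639 of these the summit, the base at which the authors placed the top of the region, lay more than 1000 bp from every annotated gene start of any kind. These 10639 are called distal below, the 300 with the highest pooled signal are called the members, and the remaining 10339 are the other distal regions. ChIP-seq recovers and sequences DNA that is bound, directly or through other proteins, to a chosen protein, here MBF-1. Whole L2 larvae of pooled sexes were used, from strain OP427, whose genotype is unc-119(ed3) III; wgIs427. MBF-1 is expressed stably in this line as a fusion whose C terminus carries GFP-FLAG, and chromatin was broken up by sonication. The samples are 2 biological replicates of 1 group, so no comparison between conditions was possible, every cell type of the larva contributed, and no strain without the tag was analysed here. A candidate list holds background by design, so a region in it was not read as a bound site.

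MBF-1 belongs to the multiprotein bridging factors, conserved proteins known in yeast and flies as coactivators that link bZIP transcription factors to the TATA-binding protein, and known in yeast and mammalian cells to associate with stalled ribosomes. DNA far from gene starts in this compact genome comprises introns, the spacers between genes and the stretches past gene ends, where RNA polymerase II transcribes beyond the polyadenylation site before it terminates. Transcriptional enhancers lie in introns and spacers, and the 5′ ends of alternative transcripts can lie far inside a gene.

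The sequences below show what lay under some of the members. The first 4 sequences are from members of rank 2, 3, 4 and 9. They do not cover every high member outside untranslated regions, since those of rank 6 and 7, with intergenic summits, are not shown. The other 3 sequences are from further members downstream of gene ends. That position was more common among the members than among the other distal regions. Each is the RefSeq sequence of assembly WBcel235 (ce11) within 100 bp of the summit on the plus strand. Capitals mark matches on either strand to a fixed motif, which is TATAAA (the letters of a TATA box), TGANTCA (recognised by AP-1), TGATAA (recognised by GATA factors) or a run of at least 8 T or A.
Rank 2, chrIII:13778957-13779157, 149 bp past the end of mdt-29: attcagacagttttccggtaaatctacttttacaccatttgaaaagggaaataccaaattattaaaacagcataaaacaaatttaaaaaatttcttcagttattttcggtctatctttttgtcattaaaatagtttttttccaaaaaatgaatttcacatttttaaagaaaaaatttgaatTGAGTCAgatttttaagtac
Rank 3, chrIII:5506590-5506790, 290 bp past the end of R02F2.1: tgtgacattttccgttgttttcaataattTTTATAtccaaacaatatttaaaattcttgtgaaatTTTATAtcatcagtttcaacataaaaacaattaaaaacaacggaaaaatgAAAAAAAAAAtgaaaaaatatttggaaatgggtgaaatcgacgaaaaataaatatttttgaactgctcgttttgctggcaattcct
Rank 4, chrIII:835875-836075, in a coding exon of dos-3 and 161 bp past the end of zip-2: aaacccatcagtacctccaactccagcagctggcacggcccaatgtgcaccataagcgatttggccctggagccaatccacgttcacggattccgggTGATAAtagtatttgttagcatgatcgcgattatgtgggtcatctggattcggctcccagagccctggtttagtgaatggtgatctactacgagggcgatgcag
Rank 9, chrIV:8431054-8431254, in an intron of T26A8.4: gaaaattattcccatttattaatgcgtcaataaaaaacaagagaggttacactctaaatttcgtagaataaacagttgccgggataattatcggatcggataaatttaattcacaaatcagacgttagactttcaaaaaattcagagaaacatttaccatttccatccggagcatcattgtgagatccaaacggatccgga
Rank 13, chrII:7397474-7397674, 223 bp past the end of bath-44: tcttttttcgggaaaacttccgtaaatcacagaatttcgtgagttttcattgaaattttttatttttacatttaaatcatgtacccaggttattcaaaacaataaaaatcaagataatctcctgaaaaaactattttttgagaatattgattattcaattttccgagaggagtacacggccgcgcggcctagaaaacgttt
Rank 31, chrIV:3386940-3387140, 139 bp past the end of mai-2: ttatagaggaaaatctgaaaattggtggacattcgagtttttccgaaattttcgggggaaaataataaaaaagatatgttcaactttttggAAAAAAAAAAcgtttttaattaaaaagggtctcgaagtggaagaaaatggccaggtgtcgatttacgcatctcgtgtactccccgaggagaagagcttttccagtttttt
Rank 73, chrIII:5917321-5917521, 207 bp past the end of tdo-2: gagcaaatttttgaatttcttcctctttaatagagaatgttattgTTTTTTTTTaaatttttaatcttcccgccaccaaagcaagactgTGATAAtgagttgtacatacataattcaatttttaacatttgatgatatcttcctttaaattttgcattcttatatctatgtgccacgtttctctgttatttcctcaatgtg
The windows at T26A8.4 and bath-44 carried none of these 4 motifs, and no other pair of windows carried the same set of them. The window at dos-3, inside a protein-coding exon, was 52.2% G+C, against 23.4% in the spacer window past mdt-29.

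The pooled signal, which chose the members, is a value per region on a scale the authors do not state and is used here only to rank and describe. It ran from 35.5 to 86.9 over the members with a median of 38.9, and from 15.5 to 35.5 over the other distal regions with a median of 20. The members' signals were skewed, with 30 members at 50 or more and 172 under 40. The last 5 members inside the limit lay in introns of npr-14, nhr-21 and dpy-21 and 454 bp past the end of dmsr-14, all at 35.6, and in an intron of dmsr-6 at 35.5. The next 5 regions, outside it, were all at 35.5 and lay in an intron of nadk-2, near sptf-3, exc-15 and bed-2, and in a coding exon of W02B3.7. The limit of 300 therefore cut through a continuous run of values and marked no step in the signal.

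**Figure D1:**
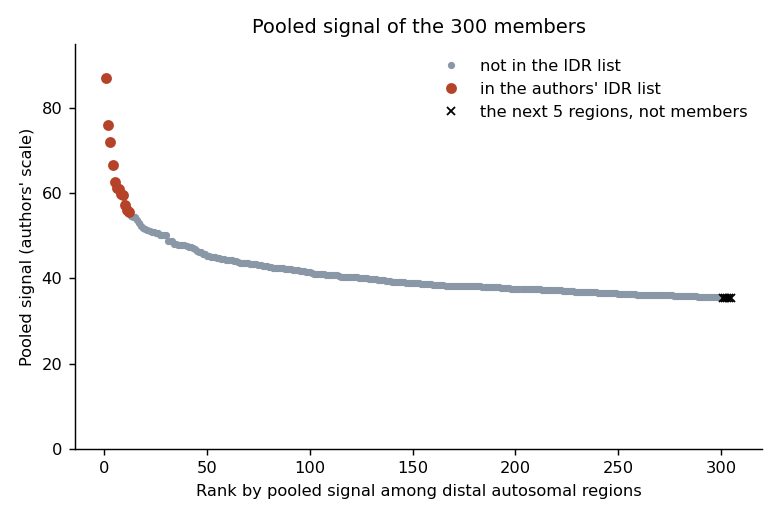
Pooled signal on the authors' scale (y axis, linear) against rank among distal autosomal regions (x axis). Each point is 1 region. The 12 members in the authors' IDR list, in red, are ranks 1 to 12, and the 5 regions just outside, crosses at 35.5, continue the line of the members.

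The authors also deposited a list of peaks that passed IDR, a procedure that keeps peaks ranked alike in both replicates. It held 12 of the 300 members (4.0%) and 0 of the 10339 other distal regions, or 0.113% of all distal regions. These 12 were the members of rank 1 to 12, so the other 288 members stand in candidate lists alone.

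The strongest member, at 86.9, lay on chromosome III from 3456251 to 3456630, in an annotated 5′ UTR of C34C12.2. Its signal was 41.7 in replicate 1 and 38.6 in replicate 2. Members of rank 2, 3 and 4 also lay on chromosome III and are the first 3 sequences shown above. Near the end of mdt-29, which encodes a subunit of the Mediator coactivator complex, the pooled signal was 76.1, with 31.6 in replicate 1 and 51.3 in replicate 2. At R02F2.1 it was 71.9, with 32.3 in replicate 1 and 37.8 in replicate 2, and in dos-3 it was 66.5, with 27.7 in replicate 1 and 37.7 in replicate 2. The end near this last member belongs to zip-2, a bZIP transcription factor of the response to pathogens.

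Below these 4, the 16 further members among the first 20 had pooled signals between 51.5 and 62.6. A member in the 3′ UTR of nra-1, which encodes a protein associated with nicotinic receptors, was at 62.6, and one 150 bp past the end of tent-5, a terminal nucleotidyltransferase gene, at 61.3. One at 60.9 lay 200 bp past nlp-40, which encodes the neuropeptide that times the defecation rhythm from the intestine. Intronic members lay in T26A8.4 at 59.6, in scc-2, the cohesin loader gene, at 57.3, and in pqn-41 at 56.0. Those in T26A8.4 and scc-2 lay 339 and 160 bp from the start of an annotated coding transcript. A member in a coding exon of icl-1, the bifunctional glyoxylate cycle enzyme, was at 52.3 with 45.6 in replicate 1 and 22 in replicate 2. The rest of the first 20 lay at T23H2.3 (59.8), near Y48G8AR.8 (55.6), at bath-44 (54.7), near egl-26 (54.3), at mdh-2, a malate dehydrogenase gene (54.3), near ret-1 (53.6), at T28F4.1 (52.9), at hacl-1 (51.8) and at pgal-1 (51.5). All 20 were present in both replicate lists, and 11 of them lay within 500 bp past the end of a coding gene.

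Each replicate has its own candidate list. Both replicates enter the pooled signal that chose the members, so the members' presence in these lists is a description and supports nothing. A member was counted in a replicate list where a region of that list overlapped it by at least 1 bp. Of the members, 283 (94.3%) were in the replicate 1 list, against 49.8% of all distal regions, and 288 (96%) were in the replicate 2 list, against 54.2%. Both lists held 271 members (90.3%), against 21.2% of the other distal regions and 23.1% of all. No member was missing from both lists, against 2030 of the other distal regions (19.6%).

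Within the lists, members had signals of 11.2 to 45.6 in replicate 1, with a median of 20.8, and of 10.2 to 51.3 in replicate 2, with a median of 20. The sum of a member's replicate signals was close to its pooled signal, with a median ratio of 0.989 and quartiles of 0.95 and 1.03. Over the 271 members in both lists the signal was higher in replicate 1 for 150 and higher in replicate 2 for 121, with a median ratio of replicate 1 to replicate 2 of 1.04. Spearman's rho between replicates was -0.266 over these 271 members and 0.12 over all 2458 distal regions in both lists. The points share their libraries and, for the members, the choice on pooled signal, so these are descriptions without a test. The plot of replicate signals shows the members as a downward band, with a few of the highest members beyond it.

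**Figure D2:**
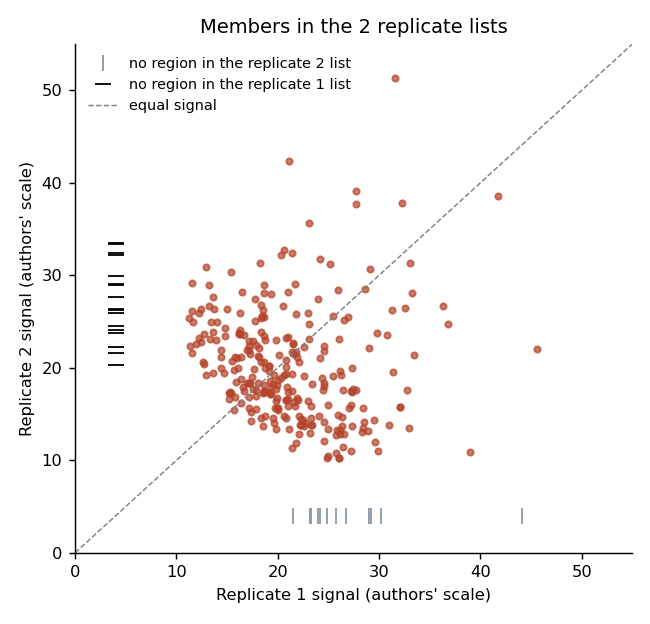
Signal of each member in replicate 2 (y axis) against replicate 1 (x axis), both on the authors' scale, with the dashed line where they are equal. Points are the 271 members in both lists, and ticks along the axes are the 12 with no region in the replicate 2 list and the 17 with none in the replicate 1 list. Points lie on both sides of the line, from a ratio of 0.394 to one of 3.59.

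The members that differed most between replicates are given by their ratio of replicate 1 to replicate 2. The highest was a spacer member on chromosome V whose nearest gene start is that of D2023.4, with 39.0 in replicate 1 and 10.9 in replicate 2, a ratio of 3.59. The next were near npr-26 (2.72), near pqn-72 (2.55) and in an intron of wac-1.1 (2.52). At the other end was the member 25 bp past the end of iff-2, a gene for translation factor eIF5A, with 11.5 in replicate 1 and 29.2 in replicate 2, a ratio of 0.394. The member past tdo-2, which encodes the tryptophan dioxygenase of the kynurenine pathway, had 12.9 in replicate 1 and 30.9 in replicate 2 (0.419), and those near exc-7 and feh-1 had ratios of 0.442 and 0.443. With 1 library per replicate these ratios have no error of their own.

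Of the 29 members in a single list, 12 were in replicate 1 alone and 17 in replicate 2 alone. The highest of them, between genes near lgc-26 on chromosome V, had a pooled signal of 43.6 and 44.1 in replicate 1. Its window had 35 alignments elsewhere in the genome. Others were a member near gei-8 with 33.4 in replicate 2, a 3′ UTR member of T28B11.1 with 30.2 in replicate 1, and an intronic member of pmk-1, the p38 kinase gene of innate immunity, with 29.1 in replicate 2. The signals of these 29 in their one list were 20.3 or more, above the median of the members in that list. The choice on pooled signal favours such values, so they describe these members and support nothing.

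Because the members were chosen on the pooled signal, the same rule was also applied inside each replicate and its choice was read in the other one. Of the 300 strongest distal regions of replicate 1, 167 (55.7%) had a region in the replicate 2 list, against 33.2% of the other 6499 distal regions of replicate 1 and 34.2% of all 6799. Of the 300 strongest of replicate 2, 143 (47.7%) had one in the replicate 1 list, against 28.7% of the other 7708 and 29.5% of all 8008. At the level of the other replicate's own strongest 300, a signal of 21.4 in replicate 2 or 21.5 in replicate 1, the shares were 13.7% of the strongest of replicate 1, against 1.78% of its other regions, and 13% of the strongest of replicate 2, against 1.97%. High distal signal thus recurred between replicates more often than other distal signal, but most of the strongest distal regions of 1 replicate were below the strongest of the other. Of the members, 12.3% were among the strongest 300 of both. This share had little room to be higher, since only 41 of the strongest of replicate 1 reached the replicate 2 level. In the other direction it was 39.

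The members' summits were placed in the annotation in a fixed order of features, from coding exon through UTR and non-coding exon to intron. They were intergenic in 126 members (42%, exact 95% interval 36.4 to 47.8), against 31.4% of the other distal regions (30.5 to 32.3). Introns held 38.3% of the members, against 48.5% of the others, and 3′ UTRs held 34 (11.3%), against 6.03%. Coding exons held 19 (6.33%), against 12.9%. Members thus lay more often between genes and in 3′ UTRs and less often in introns and coding exons, with intervals that did not overlap and that cover counting error only. With the choice made in replicate 1, introns held 42.7% of the strongest 300 (37 to 48.5), against 47.8% of the others, a difference that was not resolved. With the choice made in replicate 2, coding exons held 10% (6.85 to 14), against 14.4% (13.6 to 15.2), with intervals that overlapped. A further 3 members were in 5′ UTRs, those of C34C12.2, nhr-179 and F26F12.8, and 3 in non-coding exons.

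**Figure D3:**
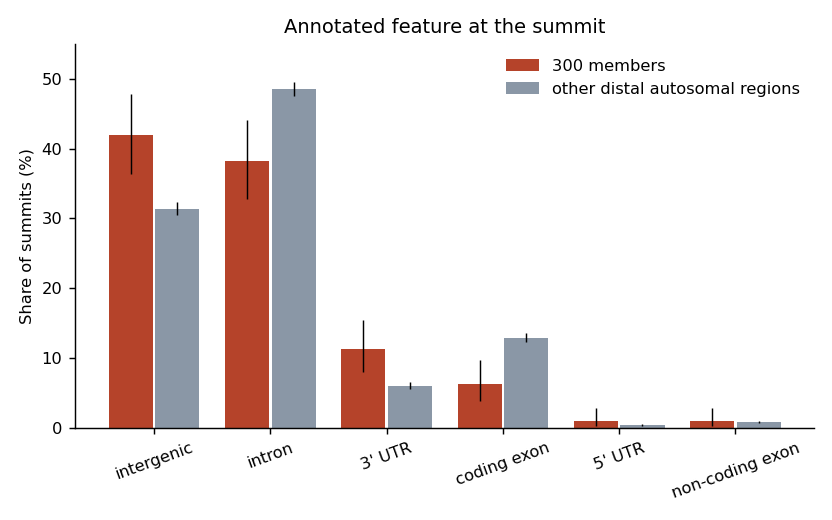
Share of summits in percent (y axis, from 0) by annotated feature (x axis) for the 300 members, in red, and the 10339 other distal autosomal regions, in grey. Bars are shares and lines their exact 95% intervals. Intergenic and 3′ UTR shares are higher in the members, at 42% and 11.3%, than in the other distal regions, at 31.4% and 6.03%.

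Although the rule keeps members away from gene starts, it leaves starts of alternative transcripts. Within 500 bp of the start of some coding transcript lay 27 members (9.0%, 6.01 to 12.8), against 5.96% of the other distal regions (5.51 to 6.43). The intervals overlapped, and the next 300 regions after the members had 8.33%. Among the 27 members was an intronic member of hif-1, the hypoxia-inducible factor gene, 14 bp from a transcript start, with a pooled signal of 43.6. A member in an intron of egl-9, which encodes the prolyl hydroxylase that marks HIF-1 for degradation, lay 374 bp from one and had 43.5. Members in vhp-1, a MAP kinase phosphatase gene, and gpb-1, a G protein beta subunit gene, lay 80 and 89 bp from a transcript start with 50.9 and 45.3. The name distal therefore holds for gene starts but not for every transcript start.

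Members differed from the other distal regions in how often they lay just past the end of protein-coding genes. With the offset counted along the gene's strand from its annotated end, 73 members (24.3%, exact 95% interval 19.6 to 29.6) lay 0 to 500 bp downstream of the nearest coding gene end, against 1020 of the other distal regions (9.87%, 9.3 to 10.5). Of all autosomal sequence that is distal by the same rule, 6.97% lies there. The 500 bp on the near side of the end held 7.67% of the members and 7.53% of the other distal regions. On that side, 4.67% of the members (2.57 to 7.71) lay from 250 to 101 bp before the end, against 2.34% of the others (2.06 to 2.65). From 500 to 251 bp before it the shares were 1.67% (0.543 to 3.85), against 3.1%. The intervals overlapped in both bins, and neither difference was clearly resolved. On the downstream side, 34 members (11.3%, 7.98 to 15.5) lay from 100 to just under 250 bp past the end, against 340 of the others (3.29%). Of the 73, 51 were intergenic, and the others lay within another annotated gene. The median offset of the 73 was 168 bp, and they lay past 72 different genes. This position was examined after the data were seen.

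**Figure D4:**
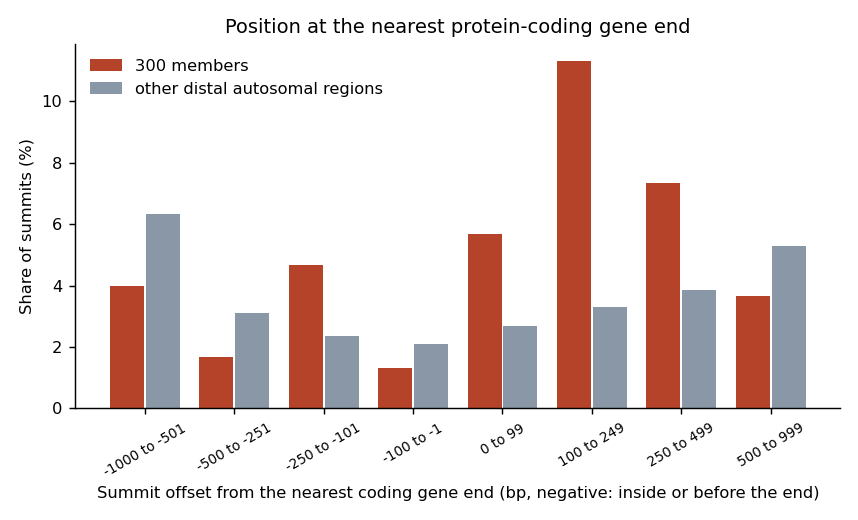
Share of summits in percent (y axis, from 0) by offset from the nearest coding gene end in bp (x axis, negative inside the gene) for members, in red, and other distal autosomal regions, in grey. Bins differ in width. From 100 to 250 bp past the end the shares are 11.3% of members and 3.29% of the others.

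The share declined along the ranking. It was 16.7% in the next 300 regions after the members, 13.5% in the 600 after those, 11.2% in the next 1200, 9.62% in the next 2400 and 8.97% in the last 5839. Without the 12 members in the IDR list it was 23.3%, and within that list it was 6 of 12. Among intergenic summits alone, 40.5% of the members lay 0 to 500 bp past a gene end, against 19.4% of the other distal regions, so the shift was also seen within the spacers.

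**Figure D5:**
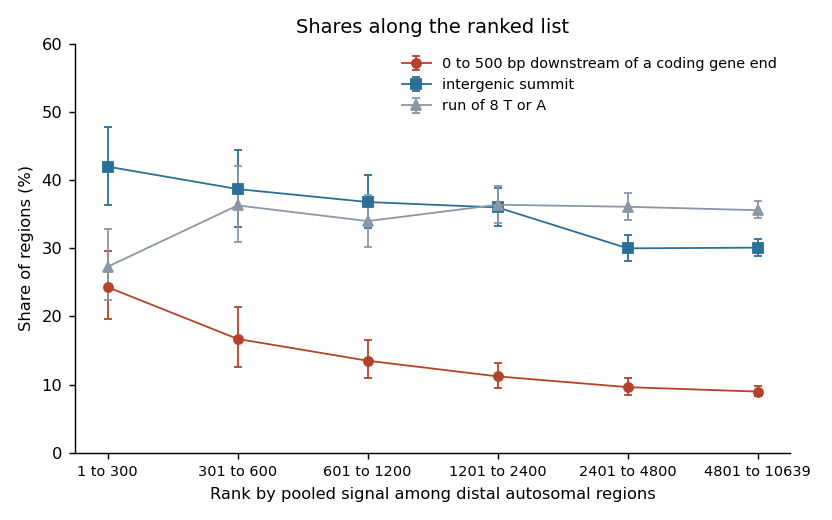
Share of regions in percent (y axis) by bin of rank on pooled signal (x axis, left bin the 300 members), for summits 0 to 500 bp past a coding gene end, intergenic summits and windows with a run of 8 T or A. Points are shares and bars exact 95% intervals. The share past gene ends runs from 24.3% in the members to 8.97% in the last bin.

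The same rule applied to single replicates gave smaller differences in the same direction. In replicate 1, 17% of the strongest 300 distal regions lay 0 to 500 bp past a coding gene end, against 10.8% of its other distal regions. In replicate 2 the shares were 18.0% of the strongest 300, against 10.2% of the others. Chromosome X is left out by the members' rule. Of its 300 strongest distal regions, 15.7% lay there (11.7 to 20.3), against 10.7% of its others (9.57 to 11.9), with intervals that overlapped. Near gene starts the share was higher than in the members. Of the 300 strongest autosomal regions within 500 bp of a coding gene start, 32% lay 0 to 500 bp past the end of a coding gene, against 19.5% of the 5127 others at such starts. A higher share among strong regions was thus not particular to the members. Whether these differences vary between the sets was not tested.

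Spacers are of 3 kinds, those in which both neighbouring coding genes end, those in which both start, and those in which one ends and the next starts. Of the intergenic members, 18.3% (11.9 to 26.1) lay in spacers where both neighbours end, against 10.8% of the other intergenic distal regions (9.73 to 11.9). In spacers where both start lay 22.2% of the intergenic members (15.3 to 30.5), against 31.1% (29.5 to 32.7), and in tandem spacers 59.5%, against 58.1%. The members' intervals left out the shares of the others, but they met or overlapped the others' intervals. Neither difference was clearly resolved. With the choice made in replicate 1, 12.8% of the intergenic regions among the strongest 300 lay where both neighbours end, against 12.2% of the others, and in replicate 2 the shares were 17.4%, against 11.3%.

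The genes past whose ends the members lay can be named from the top of the signal. After those in the first 20 came gdi-1, a Rab GDP dissociation inhibitor gene (51.4), CC8.2 (51.2), F22F7.7 (50.2), mai-2, which encodes an inhibitor of the mitochondrial ATPase (48.8), and W06H8.6 (48.8). Next were T26E3.7 (48.7), vha-14, a vacuolar proton pump subunit gene (47.9), elo-5, a fatty acid elongase gene (47.8), T05F1.2 (47.4), the 14-3-3 gene par-5 (46.9) and pck-2 (46.3), where the summit lay 106 bp past the end. At gdi-1 the signal was 20.6 in replicate 1 and 32.7 in replicate 2, at vha-14 24.6 and 22.3 in the same order, and at par-5 25.4 and 25.6. All 3 were thus present in both lists, with gdi-1 less even than the others. The summits at gdi-1, elo-5 and pck-2 lay in 3′ UTRs of other genes, which were melo-1, F41H10.3 and suro-1. Those at hacl-1 and pgal-1, among the first 20, also lay in 3′ UTRs of other genes.

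Further members past gene ends are named here after their positions were seen, with no count or test of any function. One lay at pck-1, a phosphoenolpyruvate carboxykinase gene like pck-2, at 353 bp with a signal of 44.2. Others lay at pyc-1, the pyruvate carboxylase gene, at 318 bp (36.9), and at idh-1, an isocitrate dehydrogenase gene, at 459 and 168 bp (38.5 and 35.9). Both summits at idh-1 lay in introns of F59B8.1. At fat-1, which encodes an omega-3 desaturase, the offset was 62 bp (37.2), and at pmt-2, a phosphoethanolamine methyltransferase gene, 35 bp (37.5). Members also lay at sqst-1, the autophagy receptor gene, at 269 bp (42.6), at hif-1 at 280 bp (37.9) and at xbp-1, which encodes a factor of the unfolded protein response, at 288 bp (36.5).

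Chromosome III held 77 members, I held 67, V held 66, II held 46 and IV held 44. Relative to the length of distal sequence, this was 9.57 members per Mb on III and 5.97 on II, with I at 7.6, V at 7.05 and IV at 6.46. The other distal regions were spread more evenly, between 244 per Mb on V and 264 per Mb on III. Counting error is larger for the members, with 44 to 77 per autosome, and their unevenness was not tested. The members' median signal was 38.6 on III and 39.2 on II, and the 4 highest members were all on III. The arms, taken as the outer parts of each autosome on either side of a central part of the same length, held 56.0% of the members, against 65.7% of the other distal regions and 69.0% of the distal sequence. With the choice made in replicate 1 the arms held 61.7% of the strongest 300 (55.9 to 67.2), against 65.1% of the others, so the lower share was not resolved there.

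There were 11 pairs of members within 2000 bp of each other, made of 21 members. Close pairs were not counted in an equal number of other distal regions. Whether the members lay closer together or farther apart than such regions was therefore not tested. Inside genes lay 174 members in 164 different genes, and 9 genes held more than 1. The gene with most was rabx-5, a Rab5 exchange factor gene on chromosome III, with 3 members at 40.2, 37.9 and 37.1, the first 2 of them 1284 bp apart. The closest pair was in F59B8.1 on chromosome IV, 291 bp apart with 38.5 and 35.9, and both overlapped the same replicate regions, with 32.1 in replicate 1 and 15.8 in replicate 2, so these 2 are not independent. Both also lay past the end of idh-1. The pair in crh-1, the CREB gene of the worm, had 41.1 and 37.8 and lay 1951 bp apart, and a pair in pde-2, a cyclic nucleotide phosphodiesterase gene, had 40.1 and 39.0. The member farthest from any gene start was in the 3′ UTR of mup-4, a gene for a transmembrane protein that anchors muscle to cuticle, 9304 bp from a start, with a pooled signal of 36.6.

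Base composition hardly distinguished the members. Within 100 bp of the summit, members were 31.8 ± 6.77% G+C (SD over 300 regions), against 31.5 ± 6.48% in the other distal regions. By feature it was 31.4% in intergenic members and 31.2% in intronic ones, against 31.2% and 30.2% in the other distal regions, and 38.3% in coding exons, against 37.4%. Of the members, 7 were at least 50% G+C. They included both members in pqn-41, at 52.2% and 50.2%, and intergenic members near sup-26, at 54.7%, and near lin-41, at 55.7%. The other distal regions, which reached 67.2%, were not counted at this level.

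Of the bases within 100 bp of the summit, 41.7% were masked as repeats in RefSeq, against 47.2% in the other distal regions and 39.6% of all distal autosomal sequence, and 35.7% of the members were masked over more than 50% of the window, against 43.9%. This difference was not seen when replicate 1 made the choice, with 41.3% of its strongest 300 (35.7 to 47.1), against 43% of its other distal regions. In replicate 2 it was 28% (23 to 33.4), against 39.6%. A similar sequence elsewhere, at 80% identity or more over at least 100 bp, was found for 16 members (5.33%, exact 95% interval 3.08 to 8.52), against 11.6% of the others. At 90% identity it was found for 2.0% (0.737 to 4.3), against 3.57%, a difference that was not resolved. The member with most such alignments elsewhere, 87, lay in an intron of Y43F8C.6, with a signal of 39.1. Alignments were not merged by position, so their number is not a number of separate places. Reads from such copies cannot always be placed, and how the authors placed them is not given in the sources used here, so the part of mapping in these signals was not tested.

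Fixed motifs were searched on both strands within 100 bp of the summit, and overlaps between motifs were allowed. A run of 8 T or A, TTTTTTTT or its complement, was in 27.3% of the members, against 35.8% of the other distal regions. It was in 22.6% of intronic members, against 43.8% of the other intronic regions, and in 23.5% of 3′ UTR members, against 35.6%. Intergenic members had it in 34.1%, against 33.4%, and coding exon members in 15.8%, against 13%. The share was also lower when 1 replicate made the choice, but the difference was not resolved. The intervals of the strongest 300 then held the share of the others. In replicate 1 it was in 31.7% of the strongest 300 (26.4 to 37.3), against 35.2% of the others, and in replicate 2 in 27.3% (22.4 to 32.8), against 32.5%. In the 300 regions ranked next after the members it was in 36.3%. TATAAA, the letters of a TATA box, was in 31.0% of the members, against 27.5%, and GAGAGA in 12.3% (8.83 to 16.6), against 9.4% (8.85 to 9.98). GAGAGA differed more in some alternatives, with 15.7% of the members, against 9.07% of the others, at a distal distance of 500 bp, and 15.7%, against 9.31%, with coding starts alone. With the choice made in replicate 2 it was in 13.7% of the strongest 300 (9.99 to 18.1), against 9.69% of the others, and in replicate 1 in 12.7% (9.12 to 17), against 9.19%. The highest members with GAGAGA were those at nlp-40 and pqn-41.

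TGANTCA, recognised by AP-1 in animals and Gcn4 in yeast, was in 6.67% of the members, against 5.06% of the other distal regions, with exact intervals of 4.12 to 10.1 and 4.64 to 5.5. The highest member with it is the one past mdt-29 shown above, followed by those in vhp-1 at 50.9 and in pnk-1, a pantothenate kinase gene, at 47.1. The E box CACGTG was in 4.33%, against 2.43%, the GATA sequence TGATAA in 16.3%, against 18.5%, and GAANNTTC, of heat shock elements, in 14.7%, against 17.7%. GGGCGG was in 2.33%, against 2.92%, TGACGTCA in 0.667%, against 0.909%, and TTGCATCA in 0.333%, against 0.638%. The A box of tRNA promoters was in 17%, against 16.8%. Apart from the run of T or A, the interval of each motif's share in the members held its share in the other distal regions. None of the 11 fixed motifs was found in 66 members (22%, 17.4 to 27.1), against 19% of the others.

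Of all 6-base words, those with the largest differences of share were picked after their values were seen. AATAAT was in 44.0% of the members, against 35.3% of the other distal regions, AACATT in 39.3%, against 31.2%, and AATATT in 35.0%, against 27%. TGAAAA was in 58.7% of the members, against 66.0%, and AAAACC in 18.7%, against 25.7%. All 5 words consist mostly of A and T, as did the windows themselves, and were found in many regions of both sets.

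Members were also read by the gene with the nearest protein-coding start, which is a label of position and not a target. The nearest start of any kind was that of a protein-coding gene for 71.3% of the members, against 73.3% of the other distal regions, of a snoRNA gene for 2.67%, against 1.46%, and of a piRNA gene for 2.0%, against 3.35%. Nuclear hormone receptor genes were nearest to 7 members (2.33%), against 1.34% of the others, with the highest in an intron of nhr-19 at 47.8, then nhr-179 at 43.4 and nhr-20 at 39.6. Neuropeptide genes were nearest to 6 (2.0%), against 1.11%, namely nlp-40, nlp-11 at 40.7 and flp-21 at 40.5 among others. Ribosomal protein genes were nearest to 3 (1.0%), against 0.184%, at rps-19 with 47.4, rpl-13 with 41.5 and rpl-35 with 38. All 3 of these were intergenic and lay 1063, 1077 and 3236 bp from the start.

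Chemoreceptor genes were nearest to 5 members (1.67%), against 3.14% of the other distal regions, with srx-14 at 50.1, str-206 at 48.8 and srh-2 at 40.9. Genes of ion channels and neurotransmission were nearest to 4 (1.33%), against 1.62%, which included lgc-26, twk-48 at 42.5 and kvs-3 at 40.7. Developmental transcription factors were nearest to 2 (0.667%), against 1.32%, and both members lay in the 3′ UTR of the gene itself. These were blmp-1, a regulator of larval timing, with 44.1, and pha-4, the pharynx selector gene, with 41.0. Collagen and cuticle genes were nearest to 2 members (0.667%), cutl-23 and cutl-12, against 0.89% of the others, and C-type lectins to 2 (0.667%), clec-1 and clec-164, against 0.532%. F-box and MATH genes were nearest to 1 (0.333%), fbxb-72, whose member lay in icl-1, against 0.793%. Detoxification genes were nearest to 1 (0.333%), ugt-2, whose member lay in ugt-1, against 0.609%. No member had a muscle or histone gene of the lists as its nearest start, against 0.251% and 0.058% of the other distal regions. Most lists held so few members that a difference from the other distal regions was not resolved.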

How the data were processed

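The deposited lists are in narrowPeak format and the signal of each region is the authors' own value. Per the notes deposited with the samples, candidate regions were listed once per replicate and once for both replicates together, background included, as input to IDR. The sources used here give no caller, settings, signal scale or read depth. Signal was therefore used only to rank and describe regions.

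Coordinates are those of the ce11 lists, counted from 1. Gene starts, ends and features came from Ensembl release 115 and sequence with repeat masking from RefSeq, both of assembly WBcel235, which is ce11. The gene end is that of the whole annotated gene. A replicate's signal at a region is the highest among its regions that overlap by at least 1 bp. Similar sequences were found with BLAST+ 2.17.0, with a word size of 16 and an e-value of 1e-10. Tables were made with Python 3.11.15, pandas 2.3.3 and scipy 1.17.1. Shares have exact Clopper-Pearson 95% intervals, which cover counting error only. With 1 group there was no comparison between conditions, and over 2 replicates the smallest 2-sided p of an exact sign test is 0.5, so none was run. Regions are not replicates.

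The members, gene lists and motifs were chosen with earlier results of these data known. The regions named are the 20 of highest signal, the 5 on either side of the limit, the 4 highest and 4 lowest by ratio of replicates, the farthest from a start, and up to 3 for each gene list. Genes outside this rule were named after their values were seen, as were the gene ends. Alternatives were other distances and kinds of start, other numbers of members, other windows, a stricter identity and either replicate left out. The procedures were tested on simulated data. The lists in ce10 coordinates were not used.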

Additional observations from a re-analysis of the deposited data

How the results depend on the processing

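Of 76 values recomputed under alternatives, 59 stayed within the interval of the value reported, and the others moved as follows. With a distal distance of 2000 bp, the share of members in the replicate 1 list was 90.7%, in the replicate 2 list 92.3%, among the strongest of both replicates 6.33%, and past gene ends 16.7%, against 6.78% of the other distal regions. With distance counted from protein-coding starts alone, 96.7% were in the replicate 1 list and mean G+C was 33.2%, against 31.3% in the others. With 150 members, 96.7% were in the replicate 1 list and GAGAGA was in 18.0%, against 9.36% of the others. With 600 members 89.3% were in the replicate 1 list and 92.8% in the replicate 2 list. Under these settings the shares that involve the replicate lists are given without those of the other distal regions. Within 50 bp of the summit GAGAGA was in 7.33%. A shorter window holds fewer matches in any set, and no share of the others is given for it. At 90% identity 2.0% had a similar sequence elsewhere, against 3.57% of the others, a difference that was not resolved. With a window of 250 bp past gene ends, added after the data were seen, the share was 17%, against 5.99%. Choosing the members in 1 replicate and leaving out the other gave a share past gene ends of 17% to 18.0%, a share in the replicate 1 list of 47.7%, with the choice made in replicate 2, and a share in the replicate 2 list of 55.7%, with the choice made in replicate 1. These last shares come from another candidate list as well as another choice, and over all distal regions of those lists they were 29.5% and 34.2%. No paired analysis was possible because the samples form 1 group. Depth is unknown here, and with 2 libraries the spread between animals cannot be estimated.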
